A study of Homo sapiens with 3 samples.

Results

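The genes described here lie in band 8q24, the end of the long arm of human chromosome 8, and were read out in 3 single-cell libraries of BxPC-3. The set was a list of 52 gene symbols, and those whose mean reached 1 CPM (counts of unique molecular identifiers per 1000000) over the libraries were used. By this rule 51 of the 52 entered, of 12238 genes at that level among 33694 features. PTP4A3, a phosphatase gene, was left out at a mean of 0.920 CPM, and TRAPPC9, NRBP2 and OPLAH lay just inside at 1.14, 1.45 and 1.49 CPM. The list was chosen by position in the band with results of these libraries known, selected on the lower summed CPM of double-positive cells, so the ratios between libraries below are descriptions and carry no test.

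BxPC-3 is a long-established cell line from a human adenocarcinoma of the pancreas. Cells of it with a stable EGFP label and others with a stable mCherry label were mixed in equal number and held in suspension, which induces cell-in-cell structures, in which a living cell sits inside another. Cells sorted with both colours formed the double-positive group, cells sorted with a single colour the single-positive group, and the parental group was BxPC-3 described only as parental cells. Left unsaid in the labels are the colour or colours in the single-positive library, whether the parental cells were kept in suspension, and whether the expansion named in the protocol came before or after the sort. Each group had 1 library, so no difference has a replicate check, and all intervals are 95% intervals that cover counting error only.

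The libraries held 2409 parental, 1291 single-positive and 1940 double-positive cells of at least 6500 UMIs (unique molecular identifiers, the counted molecules), with medians of 23290, 38137 and 29963.5 UMIs per cell. Pairs of libraries shared 1 to 6 cell barcodes. Epithelial markers such as KRT19 and EPCAM, 9 genes in all, summed to 8305, 8505 and 7735 CPM in the parental, single-positive and double-positive libraries. Markers of fibroblasts, endothelium and immune cells each stayed below 6 CPM in sum in every library. Of the 222 cells in 1 cluster, 210 were single-positive, with a median of 11177 UMIs among these, and the alternatives include one without this cluster.

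The band holds MYC, a transcription factor that drives growth and ribosome production, and PVT1, its long non-coding neighbour. Gain of 8q24 is among the common copy number changes of carcinomas. The distal end of the band is dense with housekeeping genes for translation, splicing, mitochondrial respiration, protein quality control and lipid synthesis, and it also carries HSF1, the main regulator of the heat shock response. DNA copy number was not measured in these samples.

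The members spanned chromosome 8 from 125430321, the start of TRIB1, to 144950888, the end of ZNF16, on build GRCh38 with GENCODE 29 gene models. In the order of the chromosome they fell into 3 blocks. The first held 5 members from TRIB1 to ASAP1, MYC among them, the second 6 from TRAPPC9 to SLC45A4, with AGO2 and PTK2, and the third 40 from TOP1MT to ZNF16. Another 41 genes at 1 CPM or more lay within the span and were not on the list.

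Summed over the 51 members, expression was 2881, 2994 and 2605 CPM in the parental, single-positive and double-positive libraries. The double-positive library was the lowest of the 3, and the other libraries lay closer to each other than to it. The log2 ratio of double-positive to single-positive cells was -0.20 (-0.21 to -0.19), a sum that was -13.0% apart. Against parental cells it was -0.15 (-0.16 to -0.14), or -9.58%. Single-positive against parental cells gave 0.06 (0.05 to 0.07). The first and second of these ratios share the double-positive library.

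The lower level ran through most of the list. Between double-positive and single-positive cells 48 of 51 members had a log2 ratio below 0, where 57.9% of all genes did. At least 1.2-fold lower were 22 members, against 10.1% of all genes, and none was 1.2-fold higher, against 4.73%. Against parental cells 41 of 51 members lay below 0, with 42.7% of all genes. There 12 members were at least 1.2-fold lower (6.22% of all genes) and none was 1.2-fold higher (6.61%). The rule used this direction, so nothing is read from these shares. The median member stood at -0.24 against single-positive and -0.15 against parental cells, beside -0.03 and 0.03 for all genes. In single-positive against parental cells 14 of 51 members lay below 0 (36.4% of all genes), no member was 1.2-fold lower and 10 were 1.2-fold higher, with 4.85% and 12.3% of all genes. In 40 members the double-positive level was below both other libraries, as in 30.5% of all genes. For 10 of them it was at least 1.2-fold below both (3.22%).

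**Figure D1:**
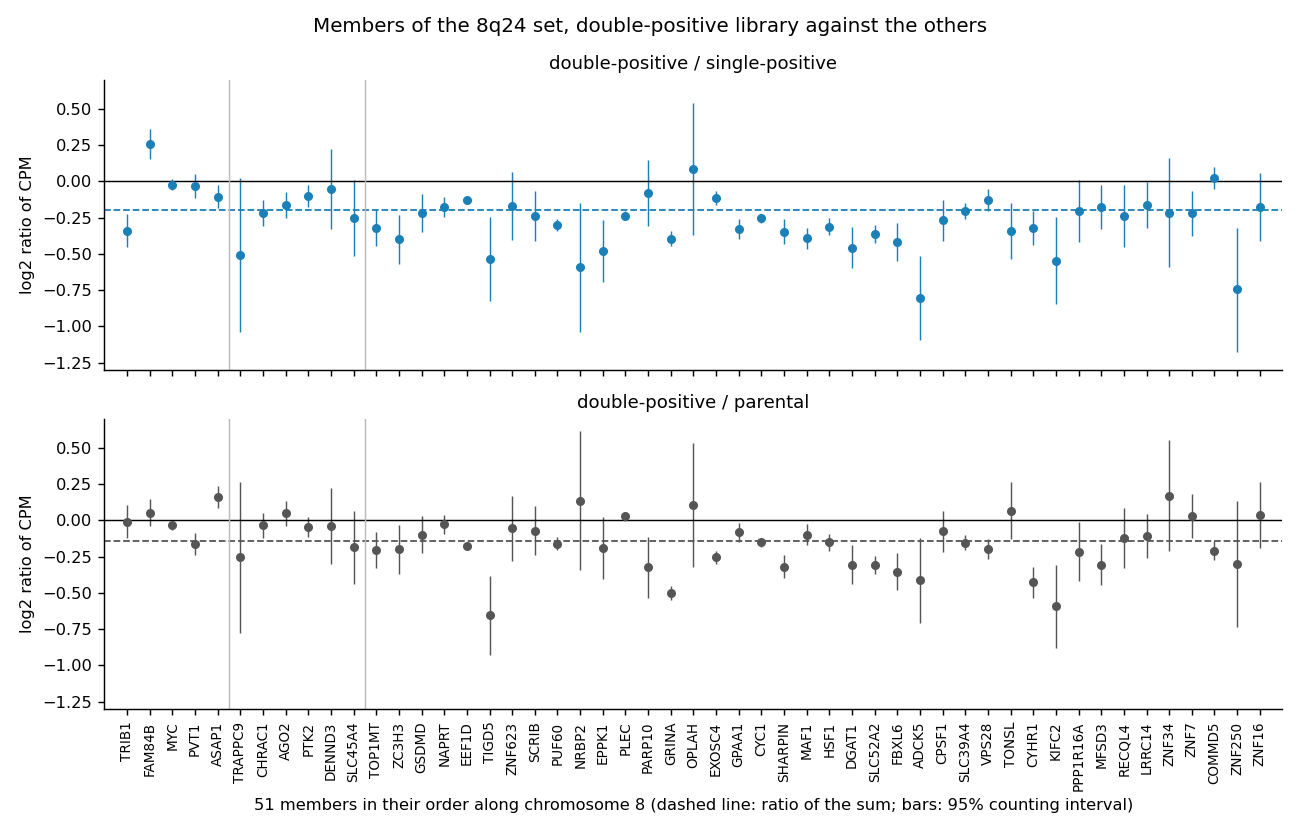
Log2 ratio of CPM for each of the 51 members in chromosome order, double-positive against single-positive (top) and against parental cells (bottom). Points are ratios of the libraries' summed counts, bars 95% counting intervals, dashed lines the ratio of the sum (-0.20 and -0.15), and grey lines part the 3 blocks. Most points of the last block lie below 0, and in the first MYC and FAM84B lie near or above it in both panels, PVT1 near it in the top panel only (-0.03, against -0.16 in the bottom panel).

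The blocks differed in size. The block of TRIB1 to ASAP1 summed to 341, 346 and 337 CPM in the parental, single-positive and double-positive libraries, 3 levels within a few percent of each other. Its log2 ratio in double-positive against single-positive cells was -0.03 (-0.06 to -0.01). TRAPPC9 to SLC45A4 summed to 131, 144 and 129 CPM, so that single-positive cells stood above the others (-0.16 against single-positive, -0.02 against parental cells). TOP1MT to ZNF16 summed to 2409, 2504 and 2139 CPM, with the double-positive library lowest. Its ratios were -0.23 (-0.24 to -0.22) and -0.17 (-0.18 to -0.16). All but 2 of the 22 members at least 1.2-fold below single-positive cells, 20 genes, belonged to the third block of 40.

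MYC itself (ENSG00000136997, chromosome 8, 127735434 to 127741434, plus strand) was at 201, 200 and 196 CPM in the parental, single-positive and double-positive libraries. The double-positive ratio was -0.02 against single-positive (-0.06 to 0.01) and -0.03 against parental cells, and its sign turned in 2 of 15 alternatives of cells, depth and scaling in each comparison. PVT1 (127794533 to 128101253) stood at 50.0, 45.7 and 44.7 CPM, highest in parental cells and nearly level in the sorted libraries (-0.03 between them, -0.11 to 0.05). The best known gene of the band was thus nearly level across the 3 libraries.

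FAM84B (126552442 to 126558393) was the one member above the group by the rule for departure, which asks for an interval that leaves out the summed ratio of all other members and a distance of at least 0.3. It was at 29.3, 25.4 and 30.5 CPM in the parental, single-positive and double-positive libraries. Its log2 ratio of double-positive to single-positive cells was 0.26 (0.16 to 0.36), and it was the single-positive library that stood low. TRIB1, a pseudokinase that steers a ubiquitin ligase to its substrates, was at 20.1, 25.3 and 20.0 CPM, with single-positive cells high and the others level. ASAP1, which regulates Arf GTPases at adhesions, was at 41.1, 49.5 and 46.0 CPM, with parental cells lowest.

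In the second block PTK2 encodes focal adhesion kinase, which signals from integrins, and AGO2 the Argonaute protein that cleaves RNA guided by small RNAs. PTK2 was at 53.5, 55.5 and 51.8 CPM in the parental, single-positive and double-positive libraries (-0.10 in double-positive against single-positive, -0.18 to -0.03). AGO2 was at 33.4, 38.7 and 34.6 CPM, with single-positive cells above the other 2 libraries. For CHRAC1, a histone-fold subunit of chromatin remodellers, the values were 34.8, 39.7 and 34.0 CPM, in the same order of single-positive above the others. TRAPPC9, a subunit of a vesicle tethering complex, DENND3 and SLC45A4, all under 5 CPM, had ratios to single-positive cells of -0.51, -0.05 and -0.25.

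The third block carried the most UMIs. EEF1D, a subunit of the exchange factor that recharges elongation factor 1, was the most abundant member by UMIs at 623, 602 and 550 CPM in the parental, single-positive and double-positive libraries. Its ratio in double-positive cells was -0.13 (-0.15 to -0.11) against single-positive and -0.18 against parental cells. CYC1, the cytochrome c1 of respiratory complex III, was at 306, 329 and 276 CPM. It was lowest in double-positive cells in both comparisons, at -0.25 and -0.15.

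PLEC, which encodes plectin, a linker of intermediate filaments to hemidesmosomes, was at 246, 295 and 250 CPM in the parental, single-positive and double-positive libraries. Here the single-positive library stood above 2 nearly level libraries, with -0.24 against single-positive and 0.03 against parental cells. PUF60, a factor that helps define 3' splice sites, was at 152, 168 and 136 CPM, and HSF1 at 77.4, 86.5 and 69.7 CPM. Both had the double-positive library lowest and the single-positive library highest. The ratios were -0.30 and -0.31 against single-positive, and -0.16 and -0.15 against parental cells. GSDMD, whose cleaved protein forms the pores of pyroptosis, was at 17.0, 18.5 and 15.9 CPM (-0.22, -0.35 to -0.09, against single-positive cells).

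Among the 41 members at a mean of 5 CPM or more, the 6 lowest in double-positive against single-positive cells all came from the third block. EPPK1, the cytolinker epiplakin, was at 6.18, 7.55 and 5.41 CPM in the parental, single-positive and double-positive libraries (-0.48, -0.70 to -0.26). DGAT1, which makes triglycerides in the last step of their synthesis, was at 15.7, 17.5 and 12.7 CPM (-0.46). FBXL6, an F-box gene, was at 18.3, 19.2 and 14.4 CPM (-0.42). Each was lowest in double-positive cells. ZC3H3, a zinc finger gene of mRNA polyadenylation and export, was at 10.1, 11.7 and 8.83 CPM (-0.40). GRINA, a multipass membrane protein, was at 131, 122 and 92.4 CPM (-0.40, -0.45 to -0.34). MAF1, the repressor of RNA polymerase III, was at 49.9, 61.2 and 46.6 CPM (-0.39). GRINA also had the lowest ratio to parental cells among the genes of this paragraph, at -0.50 (-0.55 to -0.45), where EPPK1 was at -0.19 and MAF1 at -0.10.

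The 6 highest of these 41 members were FAM84B, COMMD5, MYC, PVT1, PARP10 and PTK2. COMMD5 was at 59.7, 50.9 and 51.7 CPM in the parental, single-positive and double-positive libraries, so that the sorted libraries were level at 0.02 (-0.05 to 0.10) and parental cells higher. PARP10, a mono-ADP-ribosyltransferase, was at 6.91, 5.85 and 5.53 CPM, with parental cells highest and the sorted libraries within the interval of each other (-0.08, -0.31 to 0.15).

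By the same rule for departure 4 members, all under 5 CPM, lay below the rest. ADCK5 was at 3.65, 4.80 and 2.75 CPM in the parental, single-positive and double-positive libraries (-0.80, -1.10 to -0.51). ZNF250, a zinc finger gene, was at 1.63, 2.22 and 1.32 CPM (-0.74, -1.18 to -0.32). KIFC2, a kinesin motor, was at 4.19, 4.06 and 2.78 CPM, and TIGD5 at 4.74, 4.36 and 3.01 CPM, which gave -0.55 and -0.54. All 4 were lowest in double-positive cells. Of the 51 members 16 overlap another measured gene on the opposite strand, TIGD5 with EEF1D, ADCK5 with CPSF1, PARP10 with GRINA, MAF1 with SHARPIN, DGAT1 with HSF1, FBXL6 with SLC52A2 and COMMD5 with ZNF7 among them. No source used here says whether counting used strand, so values of such pairs may share UMIs.

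Most of the remaining members of the third block were below single-positive cells. SHARPIN, a subunit of the linear ubiquitin ligase, was at 45.4, 46.3 and 36.4 CPM (-0.35), SLC52A2, a riboflavin transporter, at 81.0, 84.1 and 65.5 CPM (-0.36), and GPAA1, of the complex that attaches GPI anchors, at 59.0, 70.0 and 55.7 CPM (-0.33). VPS28 of the ESCRT-I complex and EXOSC4 of the RNA exosome differed less, at -0.13 and -0.11. The other members of the block ran from -0.59 for NRBP2 to 0.08 for OPLAH against single-positive cells, both under 2 CPM in every library. Between these lay TOP1MT, the mitochondrial topoisomerase (-0.32), NAPRT of NAD synthesis from nicotinic acid (-0.18), SCRIB, a scaffold of cell polarity (-0.24), SLC39A4, a zinc importer (-0.20), TONSL and RECQL4, which act in replication repair (-0.34 and -0.24), CYHR1 (-0.32) and CPSF1, a subunit of the cleavage and polyadenylation factor (-0.27). ZNF623, ZNF34, ZNF7, ZNF16, PPP1R16A, MFSD3 and LRRC14 lay from -0.22 to -0.17. Against parental cells 7 of the 40 members of the block were above 0, which were ZNF34 (0.17), NRBP2 (0.14), OPLAH (0.11), TONSL (0.07), ZNF16 (0.04), ZNF7 (0.03) and PLEC (0.03).

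The rest of chromosome 8 lay in the same direction. Genes of 8q outside the span, 189 in number, summed to 9515, 9763 and 8912 CPM in the parental, single-positive and double-positive libraries. The 154 genes of 8p summed to 4625, 4746 and 4368 CPM. In both arms the double-positive library was lowest, at -0.13 and -0.12 against single-positive cells and -0.09 and -0.08 against parental cells. In 15 windows of 10 Mb each, the chromosome had a median log2 ratio below 0 in all 15 in both comparisons, between -0.27 and -0.06 against single-positive cells. The lowest of these was the window from 130 to 140 Mb, within the span, with 8 genes. The last window, where the third block lies, stood at -0.25. The members' sum (-0.20) therefore lay below that of the chromosome outside the span, and the block of MYC above it.

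The 41 unlisted genes of the span summed to 5421, 5266 and 4801 CPM in the parental, single-positive and double-positive libraries. Their ratio was -0.13 against single-positive and -0.18 against parental cells, and -0.07 and -0.15 without the 1 ribosomal protein gene among them. Of the 41, 20 were at least 1.2-fold below single-positive cells and 14 below parental cells, with medians of -0.25 and -0.19. Genes of the span outside the list thus had medians close to those of the members.

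Chromosome 8 as a whole stood at a log2 ratio of -0.14 between double-positive and single-positive cells. The other 22 chromosomes (autosomes and X) ran from -0.06 for chromosome 16 to 0.09 for chromosome 14. Against parental cells chromosome 8 stood at -0.12 and the others from -0.05 to 0.05. In single-positive against parental cells chromosome 8, at 0.02, lay inside the range of the others (-0.07 to 0.06).

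**Figure D2:**
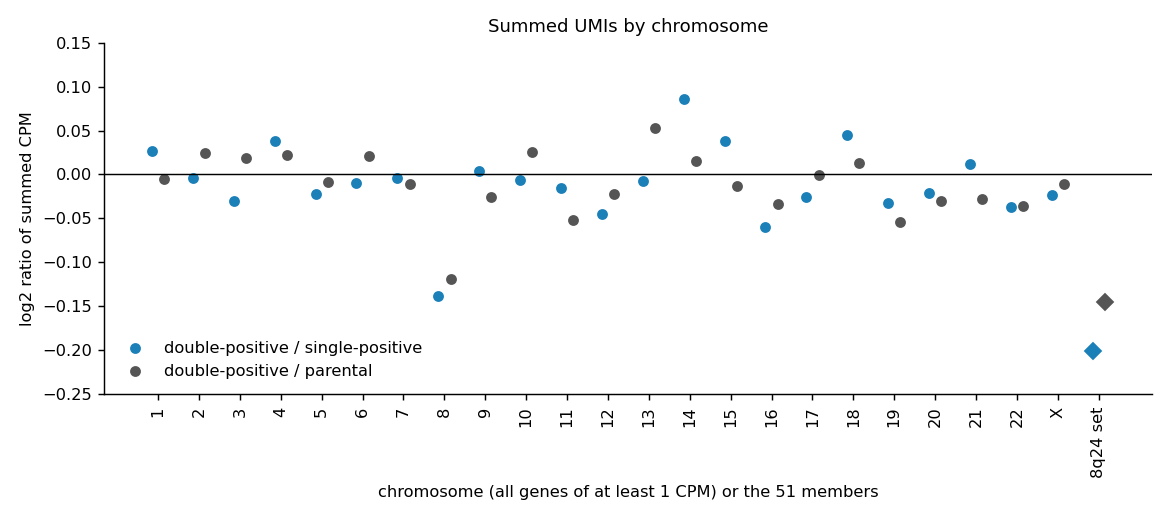
Log2 ratio of summed CPM for each chromosome (circles) and for the 51 members (diamonds), double-positive against single-positive and against parental cells. Chromosome 8 stands at -0.14 and -0.12, below the range of the other 22 chromosomes, and the members lie below it.

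The share of UMIs from the members was then taken cell by cell, to see whether the lower double-positive level was a shift of all cells or of a subset. A cell held a median of 65, 106 and 74 member UMIs in the parental, single-positive and double-positive libraries. Every cell of at least 20000 UMIs was thinned to that depth, which left out 885 parental, 297 single-positive and 328 double-positive cells. The median share was then 2800, 2900 and 2500 CPM in the parental, single-positive and double-positive libraries. Unthinned, the medians over all cells were 2786, 2895 and 2489 CPM.

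The double-positive distribution lay lower at all percentiles taken, from the 5th to the 95th. At the 5th percentile the share was 1800 CPM in parental and single-positive cells and 1600 CPM in double-positive cells. At the 95th percentile it was 4150, 4300 and 3950 CPM. The ratio of double-positive to single-positive cells was below 0 at each of the 13 percentiles taken, from -0.25 at the 70th to -0.12 at the 95th. Against parental cells it ran from -0.23 at the 10th to -0.07 at the 95th. The upper end was thus the place where the libraries came closest. Spread between cells beyond counting error, as a coefficient of variation, was 22.0% among parental, 24.4% among single-positive and 27.1% among double-positive cells. The highest double-positive cells stood at 14250, 8750 and 7000 CPM, where the highest cell was at 6150 CPM in the parental and 6800 CPM in the single-positive library. Without the 3 highest cells of each library the spread was 21.6%, 23.8% and 23.8%, so that the rank of the double-positive library above the single-positive one rested on these cells.

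**Figure D3:**
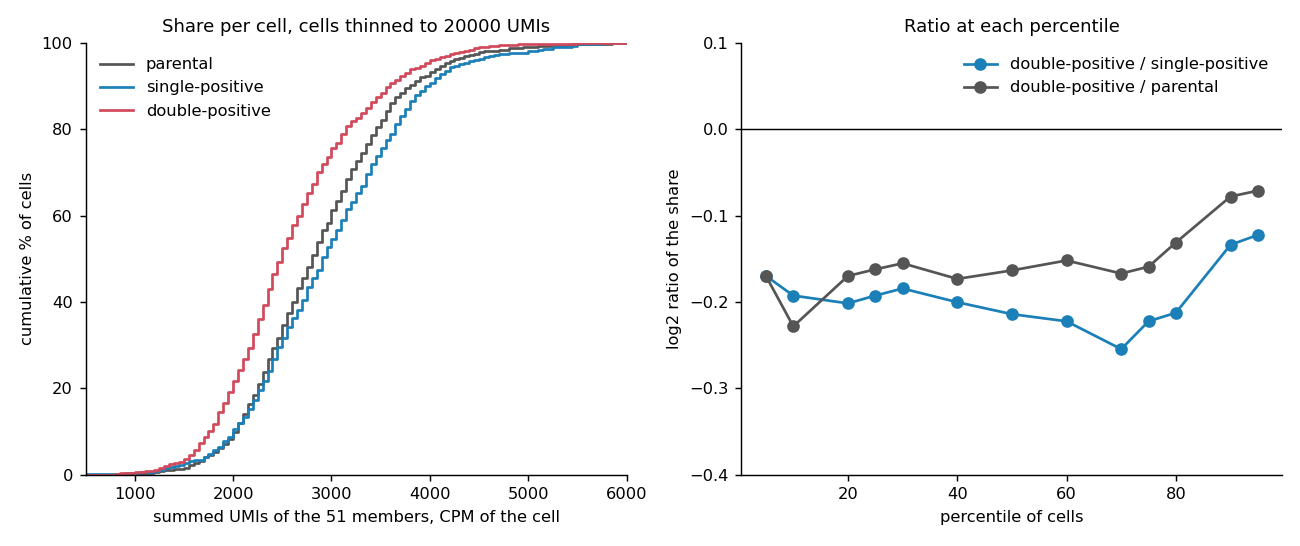
Cells of at least 20000 UMIs, thinned to that depth, are shown (1524 parental, 994 single-positive and 1612 double-positive). Left, cumulative share of these cells by the summed CPM of the 51 members in each cell. Right, log2 ratio of the share at each percentile, double-positive against each other library. The double-positive curve lies to the left from the 5th to the 95th percentile, with medians of 2500 CPM against 2900 (single-positive) and 2800 CPM (parental). On a few cells it crosses both other curves at the upper end, and the single-positive curve alone at the lower end. The ratios come nearest to 0 at the upper end.

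The single-positive distribution was changed in simple ways and set against the double-positive one, by the largest gap between cumulative curves at 20000 UMIs. As it was, the gap was 22.6 percentage points of cells. With every cell scaled by the ratio of the means it was 4.16 points. With 25.1% of cells at 0.5 of their level, the fraction that gives the same mean, it was 13.0 points. With 41.5% of cells at 0.697 of their level it was 6.62 points, where 0.697 is the ratio between the 2 modes described next. Against the parental distribution the gaps were 17.8, 3.49, 9.76 and 4.40 points. Of these 3 changes a shift of every cell came closest by this measure. A small subset with a deep loss was farther off, and a large subset at the milder level was near the first. The lowered subsets were fractions of all cells, whichever mode they lay in. The ranking therefore cannot tell a shift of every cell from a move of cells between the modes.

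The members' own UMIs, about 50 a cell at that depth, do not part cells finely, so the rest of chromosome 8 was used to sort cells. The index of a cell was its UMIs from chromosome 8 genes outside the span per 1000000 UMIs, without mitochondrial and ribosomal protein genes. No member entered it. Over all cells this index had 2 modes, centred at 14073 and 20184 per 1000000, 3.03 standard deviations apart. Built in the same way, no other chromosome had modes more than 1.10 standard deviations apart. Cells above the cut of 17249 per 1000000 are called the high class and cells below it the low class. This is a range of a score and not a cell type. It was defined after the data had been seen.

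The high class held 44.1% of parental cells (exact Clopper-Pearson interval 42.1% to 46.1%), 48.5% of single-positive cells (45.7% to 51.3%) and 29.2% of double-positive cells (27.2% to 31.3%). The double-positive library thus had the smallest high class of these 3 libraries, and the intervals cover the counting of cells only, not the spread between libraries of a group. Near the cut lay 17.8%, 24.2% and 13.4% of cells. With the index made from 8p genes alone the shares were 48.6%, 57.1% and 37.0%, and from 8q genes outside the span alone 43.8%, 45.3% and 29.1%. After thinning to 20000 UMIs they were 47.4%, 50.9% and 30.2%, so that the order of the libraries was the same in all 4 versions.

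**Figure D4:**
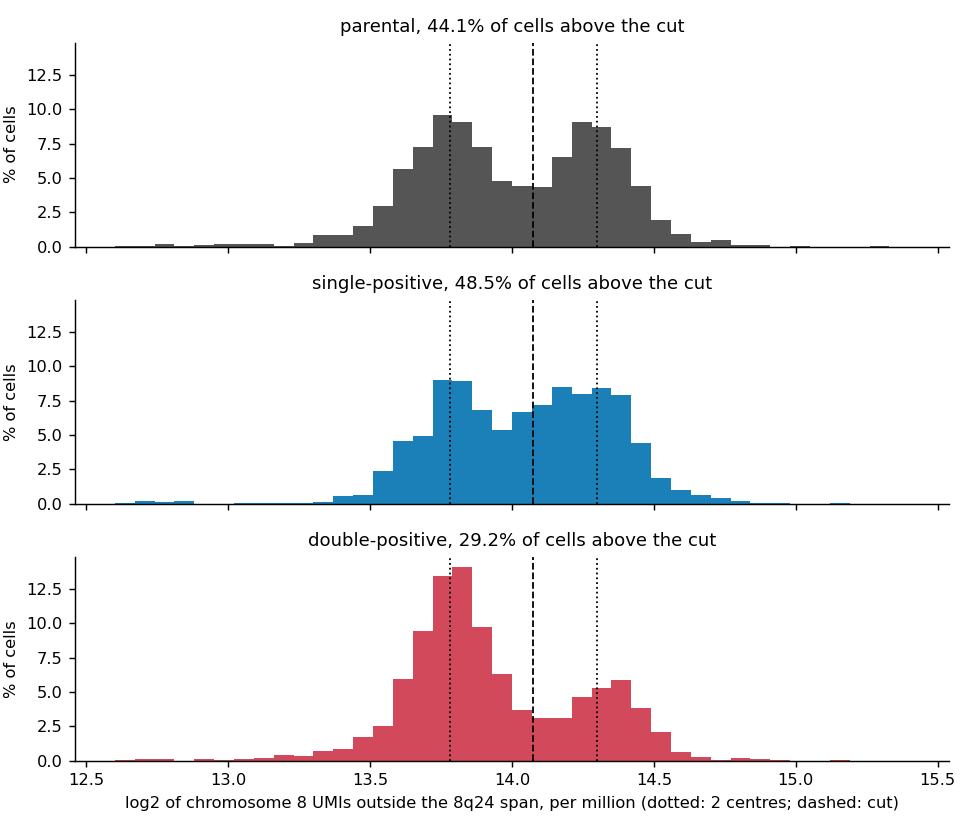
Percent of cells by the log2 of their chromosome 8 index, which leaves out all members, in each library. Dotted lines mark the centres of the 2 modes and the dashed line the cut. All libraries have cells at both modes, and 29.2% of double-positive cells lie above the cut, against 44.1% and 48.5% in the parental and single-positive libraries (2 parental, 3 single-positive and 8 double-positive cells lie outside the plotted range).

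The members followed this split in each library. Summed, they were at 2493 CPM in the low and 3343 CPM in the high class of parental cells, 2471 and 3482 CPM in single-positive cells, and 2319 and 3283 CPM in double-positive cells. The ratios of low to high class were 0.746, 0.710 and 0.706. All 51 members were lower in the low class in all 3 libraries, which held for 31.1% of all genes and 28.8% of genes on other chromosomes. For 43 of 51 the low class was at least 1.2-fold lower in every library, against 5.38% of all genes and 2.69% of genes off chromosome 8. Of the 41 unlisted genes of the span, 25 did so. Sums over other chromosomes differed between classes by log2 ratios between -0.09 and 0.16.

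MYC was among the members with the smaller split, at log2 ratios of low to high class of -0.26, -0.30 and -0.17 in the parental, single-positive and double-positive libraries. PTK2 stood at -0.49, -0.64 and -0.68, CYC1 at -0.60, -0.76 and -0.66, and HSF1 at -0.56, -0.51 and -0.57. EEF1D was at -0.31, -0.36 and -0.46, and PLEC at -0.31, -0.41 and -0.40. FAM84B, which departed from the group between libraries, split like the rest within them, at -0.41, -0.66 and -0.54. PVT1 did so too, at -0.38, -0.34 and -0.49.

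**Figure D5:**
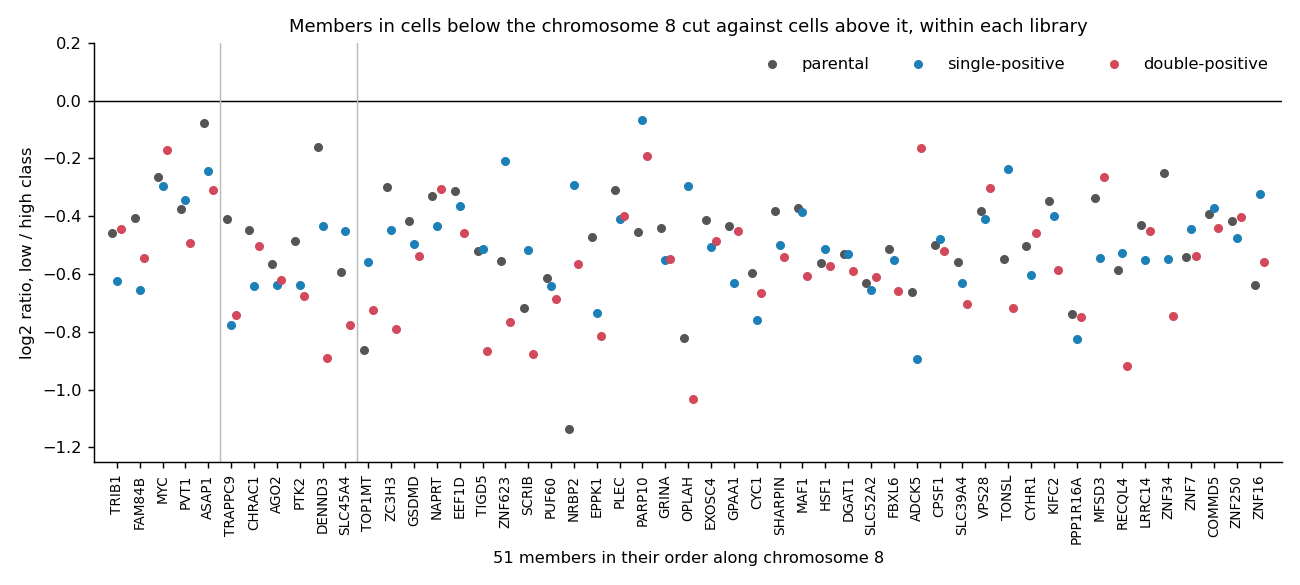
Log2 ratio of CPM between the low and the high class of cells for each of the 51 members in chromosome order, within each library (colours). All points lie below 0, and grey lines part the 3 blocks.

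Across cells thinned to 20000 UMIs, the members' share and the share of 8q outside the span had Spearman correlations of 0.62 in parental (1524 cells), 0.68 in single-positive (994 cells) and 0.54 in double-positive cells (1612 cells). With 8p they were 0.49, 0.53 and 0.48. With each of the other 22 chromosomes they lay between -0.29 and 0.18. These values describe cells that share a library, and shares of one total pull against each other. Between the first and the third block of members the correlation was only 0.13 to 0.18, on the few UMIs of the first block.

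The difference between libraries could be parted by arithmetic over the classes. Class shares in this arithmetic are shares of UMIs and not of cells. The high class held 45.7%, 51.7% and 29.7% of UMIs in the parental, single-positive and double-positive libraries. Single-positive cells given the class shares of double-positive cells would have had 2771 CPM of members. Of the gap of -388 CPM, -222 CPM (57.3%) therefore lay in the class shares and -166 CPM within the classes. Against parental cells the gap was -276 CPM, with -136 CPM (49.2%) in the class shares and -140 CPM within the classes. The division depended on how the classes were made. From 8p genes 37.9% and 31.2% of the 2 gaps lay in the class shares, and with modes fitted in each library 72.6% and 61.9%. The single-positive distribution at 20000 UMIs, with its classes weighted to the double-positive shares of cells, was 10.6 percentage points from the double-positive one, in place of 22.6. The parental distribution was 10.3 points from it, in place of 17.8. Scaling every cell by the ratio of the means had left 4.16 and 3.49 points. At 6500 UMIs per cell, which keeps all cells, weighting left 14.6 and 9.15 points, in place of 19.4 and 13.4. Scaling left 2.45 and 2.02 points there. Scaling matches the double-positive mean by construction. Weighting does not, as part of each gap (-166 and -140 CPM over all cells) lay within the classes. The distances after scaling and after weighting are therefore not like for like, and nothing is read from their order.

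Within the low class the members summed to 2319 CPM in double-positive, 2471 CPM in single-positive and 2493 CPM in parental cells, log2 ratios of -0.09 (-0.11 to -0.08) and -0.10 (-0.12 to -0.09). In the high class they summed to 3283, 3482 and 3343 CPM, or -0.08 (-0.10 to -0.07) and -0.03 (-0.04 to -0.01). Below 0 against single-positive cells were 43 of 51 members in the low class and 36 in the high class, where 57.8% and 52.7% of all genes were. Against parental cells 37 of 51 in the low class and 24 in the high class were below 0, beside 43% and 43.4% of all genes. With cells near the cut left out and classes weighted alike, the ratio was -0.08 against single-positive cells, beside -0.09 with all cells.

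With the 2 classes weighted alike in every library, 11 members were at least 1.2-fold below single-positive cells (9.96% of all genes) in place of 22, and 6 below parental cells (6.35%) in place of 12. Both counts moved by over 1.5 times. By block the sums were then 0.04 for TRIB1 to ASAP1, -0.02 for TRAPPC9 to SLC45A4 and -0.11 for TOP1MT to ZNF16 against single-positive cells, and 0.03, 0.08 and -0.09 against parental cells. The lower level that was left lay in the third block. The 40 unlisted genes of the span that are no ribosomal protein genes summed to 0.09 and -0.04 when weighted in this way, with medians of -0.15 and -0.09. MYC stood at 0.03, FAM84B at 0.39, GRINA at -0.27, DGAT1 at -0.33, EPPK1 at -0.30 and ADCK5 at -0.70 against single-positive cells. CYC1 stood at -0.09 and EEF1D at -0.03, both closer to 0 than before.

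The members' sum was below 0 in each subset of cells that was compared, though not beyond counting error in all of them. By cell cycle phase the members' sum was between -0.20 and -0.18 against single-positive cells, and between -0.15 and -0.13 against parental cells. In 5 ranges of UMIs per cell it lay between -0.25 and -0.12, and between -0.19 and -0.10. In 9 clusters made without chromosome 8 genes it lay between -0.41 and -0.13, and between -0.31 and -0.05. In cluster 8 the ratio to parental cells was -0.05 with an interval that includes 0 (-0.12 to 0.01). Cluster 6, with 8 parental and 4 double-positive cells, has the widest interval among them. The high class was smaller in double-positive than in single-positive cells in all 3 phases, all 5 UMI ranges and all 9 clusters. It was smaller than in parental cells in all but cluster 8, where it was 23.6% of double-positive and 23.0% of parental cells. The mitochondrial share of UMIs, which moved with the libraries, was 2.02% and 2.17% in the low and high class of double-positive cells, 1.21% and 1.23% in single-positive and 0.953% and 0.998% in parental cells. With mitochondrial genes left out of the total, the members' sum was -0.19 against single-positive and -0.13 against parental cells. Without cells under 0.5% mitochondrial UMIs the sums were -0.20 and -0.14, and 27 and 15 members were at least 1.2-fold lower in place of 22 and 12. No cell had over 20% mitochondrial UMIs.

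Genes on other chromosomes that work with the members were counted from 20 lists. Of 144 such genes 14 were at least 1.2-fold below single-positive cells and 4 above, where 10.1% and 4.73% of all genes were, with a median of -0.07 beside -0.03 for all genes. Against parental cells 6 were lower and 6 higher (6.22% and 6.61% of all genes), with a median of 0.01 beside 0.03. The share of partners 1.2-fold lower was thus close to that of all genes or below it. Below 0 were 102 of the 144 against single-positive and 69 against parental cells, beside 57.9% and 42.7% of all genes.

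MYC targets, 37 genes of ribosome production, metabolism and growth, had a median of -0.14 against single-positive and -0.0040 against parental cells. Of these genes 4 and 2 were 1.2-fold lower, near the 10.1% and 6.22% of all genes. Below 0 were 35 against single-positive and 19 against parental cells, beside 57.9% and 42.7% of all genes. NPM1, a nucleolar chaperone, was at 1852, 1952 and 1809 CPM in the parental, single-positive and double-positive libraries. ENO1, the glycolytic enolase, was at 1373, 1579 and 1369 CPM, with single-positive cells high. Of 12 heat shock genes under HSF1, all were below single-positive cells (median -0.16) and 2 at least 1.2-fold, beside 57.9% and 10.1% of all genes. Against parental cells 10 were below 0 (median -0.06) and none 1.2-fold lower, beside 42.7% and 6.22%. HSP90AB1, an HSP90 chaperone, was at 1171, 1341 and 1150 CPM.

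The members' own complexes and partners were compared list by list, and some of the lists are given here. The 7 other subunits of complex III had a median of -0.05 against single-positive and -0.01 against parental cells, where CYC1 had -0.25 and -0.15, and none was 1.2-fold apart in the lower direction. UQCRFS1, the Rieske iron-sulfur subunit, was at 520, 476 and 551 CPM, highest in double-positive cells. Its ratio to single-positive cells (0.21) was the highest of these 7, of which 4 lay below 0. The 10 other exosome subunits had medians of -0.06 and 0.05, with none 1.2-fold lower, where EXOSC4 had -0.11 and -0.25. The 5 other subunits of the cleavage and polyadenylation factor had 0.04 and 0.08, where CPSF1 had -0.27 and -0.08. The 4 other subunits of the GPI transamidase had 0.02 and 0.13, where GPAA1 had -0.33 and -0.08. PIGK, its catalytic subunit, was at 16.9, 18.3 and 22.2 CPM, highest in double-positive cells. No other of these 4 was 1.2-fold above single-positive cells, and PIGT, the most abundant, stood at 0.01 against them. For Argonaute and its partners the 7 genes had 0.07 and 0.17, where AGO2 had -0.16 and 0.05. The 5 plakins of other chromosomes had -0.07 and 0.20, where PLEC had -0.24 and 0.03. The 5 partners of focal adhesion kinase had -0.14 and -0.0020, where PTK2 had -0.10 and -0.05. In this last list the partners' median lay below the member against single-positive cells, and in the other 6 lists given here above it. The 10 MYC network partners, outside that tally, had medians of -0.10 and -0.0053, where MYC had -0.02 and -0.03. Against single-positive cells the medians of these partners and of the MYC targets thus lay below MYC. In the remaining lists the median lay above the member. The members were chosen on their lower double-positive sum, so medians of partners above them are partly built in. Nothing is read from these tallies.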

How the data were processed

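The deposited matrices hold counts of UMIs per gene and barcode, written by Cell Ranger per the file headers. Build GRCh38, Cell Ranger 4.0.0 and Seurat 4.0.6 are named in the submitters' processing notes, and the kit was 10x Chromium 5' per the labels' protocols. Which annotation release was counted is not stated there. Positions came from GENCODE 29, which matched 33132 of 33694 features by identifier.

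The members, lists and settings were chosen with earlier results of these data known. Cells were barcodes of at least 6500 UMIs, which held 98.0%, 97.7% and 97.8% of the UMIs of the parental, single-positive and double-positive libraries (totals 65107147, 51637677 and 62517276). No doublets were removed in any library, since the double-positive gate selects for 2 signals. That reason does not cover the parental and single-positive libraries, so doublets may remain among the cells of each library. UMIs were summed per library and scaled to CPM. Log2 ratios have exact conditional binomial (Clopper-Pearson) intervals. No p-value was computed, as cells of 1 library are no replicates, and members past 1.2-fold were counted beside all genes at 1 CPM or more.

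Values in all libraries were given for 10 members chosen by role and for the 6 lowest and 6 highest ratios of double-positive to single-positive cells among members at 5 CPM or more. The departing members, and members that illustrate a complex, were added. Of a partner list, the genes named are among the 3 of highest mean CPM.

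Cells were thinned to 6500 or 20000 UMIs without replacement. Clusters came from Leiden at resolution 0.5 on 30 principal components of 2000 variable genes, without chromosome 8 genes. The 2 classes came from a mixture of 2 normal distributions of the log2 index, fitted over all libraries and parted at a posterior of 0.5, with cells between 0.1 and 0.9 called near the cut. Windows, classes and all values within them were added after seeing the data. Ratios of summed counts and the fit of the 2 classes were tested on simulated counts, and thinning on some single-positive cells. The simulated cells had 2 classes built in, so the test cannot tell whether the real index has 2 modes. The other steps were not tested in this way. Tools were scikit-learn 1.9.0, scanpy 1.11.5 and leidenalg 0.10.2, with scipy 1.17.1, numpy 2.4.6, pandas 2.3.3 and matplotlib 3.10.9 under Python 3.11.15.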

Additional observations from a re-analysis of the deposited data

How the results depend on the processing

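The members' sum and median kept their direction in both double-positive comparisons under all 18 alternatives of cells, depth, weighting, scaling, ambient RNA and members. Against single-positive cells the sum lay outside its counting interval in cells of 20000 to 40000 UMIs (-0.21), with median-of-ratios scaling (-0.18), without mitochondrial genes in the total (-0.19), and without the most abundant member (-0.22) or the 5 most abundant (-0.23). Against parental cells it did so with median-of-ratios scaling (-0.17), without mitochondrial genes (-0.13) or these and ribosomal protein genes (-0.13) in the total, and without the 5 most abundant members (-0.18). Single-positive against parental cells gave 0.0057 with median-of-ratios scaling and 0.083 without EEF1D. Members at least 1.2-fold lower numbered 14 and 7 in the double-positive comparisons where only the 34 members at 10 CPM or more entered. In single-positive against parental cells, in place of 0, they were 4 in cells of 20000 to 40000 UMIs, 2 in G1 cells, at 6500 UMIs per cell and with median-of-ratios scaling, and 1 without cells under 0.5% mitochondrial UMIs, without large cells, without the single-positive cluster, at 20000 UMIs and by the mean of cells. The median cell's ratio to single-positive cells moved by over 1 UMI without the 5 most abundant members (-0.36). Single members were less stable: 38 of 51 kept their sign against single-positive cells in all 15 alternatives of cells, depth and scaling, and 32 against parental cells. At 6500 UMIs per cell TRAPPC9 turned to 0.24 and NRBP2 to 0.41 against single-positive cells, and NRBP2 to -0.53 in single-positive against parental cells. Alternatives for the classes were chosen after seeing the data. The high class of parental, single-positive and double-positive cells was 48.6%, 57.1% and 37.0% from 8p genes. It was 45.3% of single-positive cells from 8q genes, 54.2% of single-positive cells beside 26.9% of double-positive cells with modes fitted in each library, and 41.4% of parental cells without cells near the cut. It was 32.6% of double-positive cells at 6500 UMIs, 47.4% of parental cells at 20000 UMIs, 51.6% of single-positive cells in the range of 20000 to 40000 UMIs, and 40.3% of parental and 26.3% of double-positive cells in G1. The members' ratio of low to high class (parental, single-positive, double-positive) was -0.34, -0.40 and -0.38 from 8p genes, -0.49, -0.56 and -0.55 without cells near the cut, and -0.41, -0.40 and -0.43 at 6500 UMIs. It was -0.45 in parental and -0.52 in double-positive cells of 20000 to 40000 UMIs, -0.54 in double-positive G1 cells and -0.52 in single-positive cells without their cluster. With classes weighted alike, the sums against single-positive cells, against parental cells and between these 2 were -0.13, -0.097 and 0.033 from 8p genes and -0.055, -0.042 and 0.013 with modes fitted in each library, and -0.077 against single-positive cells without cells near the cut. Without the 3 cells of highest share in each library, also chosen after seeing the data, the spread between cells was 21.6%, 23.8% and 23.8%. The cause of these shifts was not tested. No paired analysis was possible because each group had 1 library, and the libraries share only the number 1. Depth limits single members below 5 CPM most.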

Other observations

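Among 5300 genes off chromosome 8 at a mean of 20 CPM or more, 4 were at least 2-fold lower in the low class in all 3 libraries (0.0755%) and 5 at least 2-fold higher (0.0943%). They were picked after their values were seen. The lower ones were KLK10 and KLK11, kallikrein proteases of epithelia, TFF1, a mucosal trefoil peptide, and SERPINB13, a protease inhibitor of squamous epithelium. KLK10 was at 76.8 CPM in the low and 221 CPM in the high class of parental cells, at 70.8 and 291 CPM in single-positive cells, and at 75.2 and 266 CPM in double-positive cells. KLK11 was at 24.4 and 83.7 CPM, 20.7 and 108 CPM, and 17.9 and 85.9 CPM. That both proteases were lower in the low class of each library follows from how they were picked.

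The higher ones included VIM, which encodes the intermediate filament vimentin, G0S2, an inhibitor of triglyceride lipase, ANKRD1, a target of YAP, and the clone-named RP11-462G2.1. VIM was at 50.5 CPM in the low and 21.5 CPM in the high class of parental cells, at 137 and 21.8 CPM in single-positive cells, and at 42.6 and 17.1 CPM in double-positive cells. G0S2 was at 132 and 57.8 CPM, 127 and 38.6 CPM, and 81.4 and 36.7 CPM. The low class of single-positive cells was the highest of all 6 groups of cells for VIM.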
